A study of Drosophila melanogaster with 12 samples.

Results

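The long non-coding RNA genes described here are 95 genes of Drosophila melanogaster whose symbol is CR followed by 5 digits, with the prefix lncRNA: or asRNA:, and whose level averaged at least 5 TPM over all 12 libraries of the study. TPM gives the share of a library's transcripts, corrected for their length and scaled to 1000000 per library, and was summed over the transcripts of a gene. The table held 17139 genes, of which 2370 had such a symbol. Of these 2370, 408 were listed at 0 in every library, 2068 averaged under 1 TPM and 207 averaged between 1 and 5 TPM. The 95 genes were thus selected on their mean level over both groups, so their levels are given as a description. By their symbols 55 were lncRNA genes and 40 were antisense RNA genes. The RefSeq annotation lists 54 as lncRNA and 40 as antisense RNA, and lncRNA:CR44404 was matched to no record. RefSeq names lncRNA:CR31451 of the table lncRNA:mimi, the name used below.

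Fat bodies were dissected from larvae 96 hours after egg laying, and RNA was sequenced from 6 libraries of r4-Gal4>WT, called control, and 6 of r4-Gal4>TFAM RNAi. Both groups carried the driver r4-Gal4, which targets expression to the fat body, the larval organ of nutrient storage and humoral immunity. TFAM is the protein that compacts mitochondrial DNA and is needed to transcribe it. No RNAi construct is named for the control. Effects of carrying such a construct, or of strain background, thus cannot be told apart from those of less TFAM. Controls were numbered 2, 3, 5, 6, 7 and 8 and TFAM RNAi libraries 3 to 8. The labels gave neither the sex of the larvae nor the number pooled per library, and did not say whether libraries came from separate cultures. The p-values therefore measure only the spread between these libraries, which may be partly technical.

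Long non-coding RNAs are transcripts with no known protein product, most of them made by the same polymerase as messenger RNAs. Antisense RNAs are read from the strand opposite another gene, and some are known to change the transcription or stability of the RNA they overlap. The best known long non-coding RNAs of the fly are roX1 and roX2, which guide dosage compensation to the male X chromosome. For most genes known only by a CR number no function has been described.

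TFAM itself stood at 91.9 ± 8.21 TPM (SD, n = 6) in control and at 24.2 ± 1.92 TPM (SD, n = 6) in TFAM RNAi, and no library of one group overlapped the other. Of 12 fat body markers, 11 averaged at least 1 TPM, and the list summed to 102600 to 156700 TPM in control and 109600 to 150600 TPM in TFAM RNAi. Within the list 4 of the 11 had an adjusted p under 0.05 in the limma test below. Lsp1alpha rose from a mean of 308.8 to 9791 TPM and Fbp2 from 141.8 to 2089 TPM. Nplp2 fell from 61900 to 42110 TPM and Lsd-1 from 1480 to 800.3 TPM. The 91 markers of 13 other tissues and cell types that the table held summed to 1748 to 11520 TPM in control and 1517 to 6255 TPM in TFAM RNAi. Some libraries stood apart. Control 2 had the highest sums of muscle markers (3183 TPM) and of epidermis and cuticle markers (6767 TPM), and TFAM RNAi 3 and 7 followed it for the latter with 3149 and 1586 TPM. TFAM RNAi 3 also held 1108 TPM of salivary gland markers, against 1.34 to 23.4 TPM in the other 11 libraries. Between the groups, ring gland markers summed to 46.2 to 75.2 TPM in control and 0.455 to 9.61 TPM in TFAM RNAi, Malpighian tubule markers to 736 to 1114 and 349.9 to 716 TPM, and hemocyte markers to 90.3 to 271 and 34.1 to 90.8 TPM. The genes sad, Uro and Pxn, named after their values were seen, made most of these 3 differences. Without them the sums of these lists overlapped between the groups, for example 17.5 to 77.3 against 30.3 to 84.2 TPM for the hemocyte markers. Other lists did not all go the same way. Neuron markers summed to 22.48 to 29.55 TPM in control and 29.03 to 35.4 TPM in TFAM RNAi. Oenocyte markers summed to 6.1 to 28.58 and 2.33 to 10.02 TPM. Of 8 gut markers in the limma test below, 3 had an adjusted p under 0.05, all higher in TFAM RNAi. In bulk libraries, fewer cells of a type and less RNA per cell cannot be told apart. The part of other tissues in the results below was not tested, except where a library is left out.

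The 95 genes spanned a wide range of levels. Their mean was 100 TPM or more for 6 genes, 10 to 100 TPM for 45 and 5 to 10 TPM for 44, with a median of 11.5 TPM. Together they made 0.491 to 0.733% of the TPM of a library. The longest transcript of the 94 annotated genes had a median of 745.5 bases, from 246 bases for lncRNA:CR44459 to 5913 bases for asRNA:CR45604, and 66 of the 95 genes had 1 transcript in the table. At the border of the choice, lncRNA:CR43461, asRNA:CR45968 and lncRNA:CR32582 lay just inside at 5.03, 5.13 and 5.16 TPM, and asRNA:CR45800, lncRNA:CR43685 and lncRNA:CR44133 just outside at 4.97, 4.77 and 4.71 TPM.

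Knockdown of TFAM went with lower levels of 19 of these genes and higher levels of 9. Gene levels were compared with limma on log2(TPM + 1) over all 9951 genes that averaged at least 1 TPM, and genes with an adjusted p under 0.05 are described as called. The 28 called genes were 29.5% of the 95. Over all tested genes 19.6% were called, 13.8% lower and 5.75% higher, and among the 6952 tested genes that averaged at least 5 TPM 24.5% were called. Part of the share follows from how the genes were chosen. The mean of 5 TPM was reached in control only by 13 genes, of which 10 were called, all lower, and in TFAM RNAi only by 5 genes, of which 3 were called, all higher. Of the 77 genes that averaged at least 5 TPM in each group, 15 (19.5%) were called, 9 lower and 6 higher. That share is near the 19.6% over all tested genes and below the 24.5% of those that averaged at least 5 TPM. Both of these sets were filtered on the mean over all 12 libraries and not in each group, so the shares are not strictly alike. With quantile normalization 961 of all tested genes were called higher and 1075 lower, against 572 and 1377 with TPM as deposited. The median log2 fold change was 0.07 over the 95 genes and 0.01 over all tested genes. The called share was 29.1% among lncRNA genes (16 of 55) and 30.0% among antisense RNA genes (12 of 40). Among the 207 weaker CR genes 34 (16.4%) were called, 22 lower and 12 higher. The 12 libraries fell into groups without overlap for 23 of the 95 genes, of which 22 were called. Over all tested genes 13.3% were without overlap, and 13.1% were called and without overlap. This count too depends on the choice of the genes. Among the 77 genes that averaged at least 5 TPM in each group 13 did not overlap. Of the 6952 tested genes that averaged at least 5 TPM over all libraries, a wider filter, 1165 did not overlap.

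**Figure D1:**
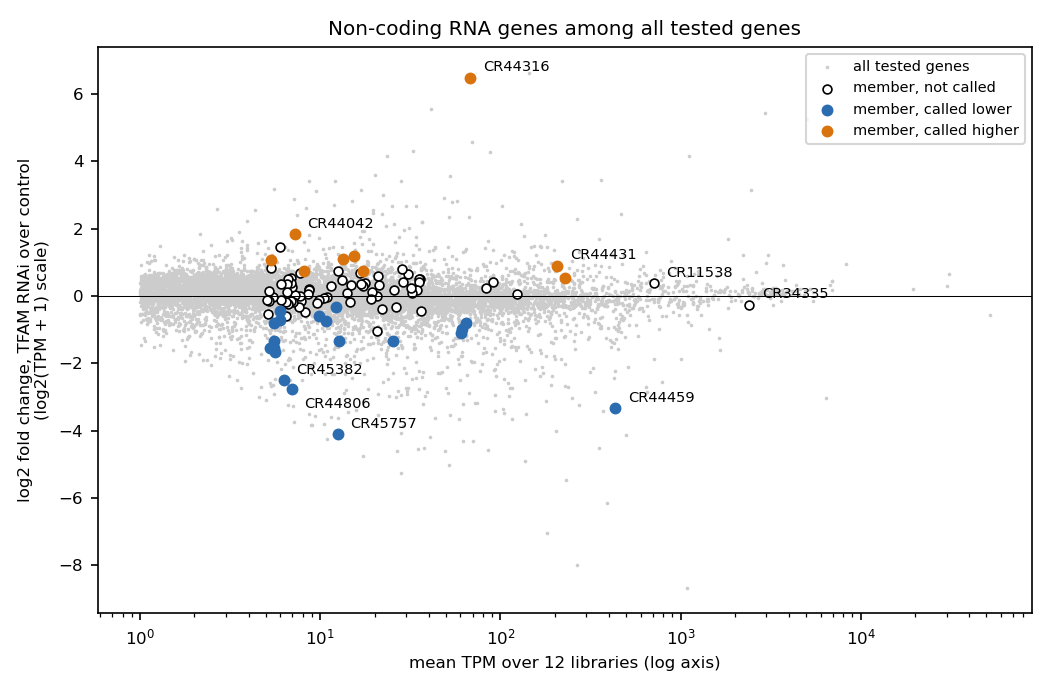
Log2 fold change of TFAM RNAi over control against mean TPM over the 12 libraries (log axis), for all 9951 tested genes (grey) and the 95 non-coding RNA genes, called members of the set (filled) and uncalled ones (open). The 95 genes run from -4.11 for lncRNA:CR45757 to 6.49 for lncRNA:CR44316, and most lie within the cloud of all genes.

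Among the genes that fell, lncRNA:CR44459 carried the most RNA. It is also the shortest of the set and overlaps lncRNA:CR44458 on the opposite strand. The library kit kept the strand, but whether the quantification used it is not given in the sources used here, so reads of a gene and of its antisense partner cannot be told apart. Its level was 590 to 929 TPM in control, with a median of 818 TPM, and 61.5 to 114 TPM in TFAM RNAi, with a median of 74.4 TPM. Every control library was above every TFAM RNAi library, and the means were 791 ± 131 and 78.3 ± 18.5 TPM (log2 fold change -3.33, SE 0.15, adjusted p = 1.03e-08). In control its mean was the second highest of the 95 genes. Its partner lncRNA:CR44458 fell less, from 82.6 ± 16.1 to 46.2 ± 7.38 TPM, a log2 fold change of -0.82 with an adjusted p of 0.000809. Pms2, a DNA mismatch repair gene that precedes this pair on the chromosome, rose, with means of 3.45 and 7.79 TPM, a log2 fold change of 1.01 and an adjusted p of 0.019.

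The largest fold decrease was that of lncRNA:CR45757. Control libraries held 9.96 to 42.2 TPM (median 23.9) and TFAM RNAi libraries 0 to 0.666 TPM (median 0.323), 2 of them listed at 0. The groups did not overlap, and the log2 fold change was -4.11 (SE 0.35, adjusted p = 2.57e-06). The next gene on the same strand is Chs2, a chitin synthase, which stood at 19.9 ± 5.56 and 3.17 ± 0.872 TPM and fell by 2.31 on the log2 scale (adjusted p = 2.43e-06). A gene that likewise fell beside changed coding genes was lncRNA:CR45382, at 7.78 to 17.2 TPM in control (median 9.77) and 0.735 to 1.67 TPM in TFAM RNAi (median 1.06). Again the groups did not overlap, and the fall was -2.50 on the log2 scale (SE 0.21, adjusted p = 2.47e-06). It lies between CG11426 and CG11425, both on the other strand with no shared exon. CG11426 fell by 1.83 and CG11425 by 1.86 on the log2 scale, the latter from 1579 ± 271 to 430.4 ± 58.9 TPM.

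Of the 8 largest falls, 4 were antisense genes that share exon positions with a coding gene on the other strand. The gene asRNA:CR44806, opposite the potassium chloride cotransporter gene kcc, had 10.4 to 15.7 TPM in control (median 12.7) and 0.67 to 1.76 TPM in TFAM RNAi (median 0.883). The groups were far apart, with a log2 fold change of -2.78 (SE 0.16, adjusted p = 7.21e-08), and kcc went from 81.1 ± 21.4 to 5.56 ± 1.29 TPM, a log2 fold change of -3.63. Opposite Vago, which encodes a secreted antiviral protein, asRNA:CR45604 had 6.3 to 10.9 TPM in control (median 9.39) and 1.96 to 2.59 TPM in TFAM RNAi (median 2.37). The groups were apart by -1.54 on the log2 scale (SE 0.14, adjusted p = 5.53e-06), and Vago by -2.67. Its transcript also lies opposite CG2076 and CG2061, which moved in different directions, at -0.76 and 1.31 on the log2 scale.

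Levels of asRNA:CR45479, opposite the cytochrome P450 gene Cyp4d14, were 5.19 to 10.4 TPM in control (median 8.53) and 1.74 to 2.8 TPM in TFAM RNAi (median 2.09). All control libraries were higher, and the log2 fold change of -1.54 (SE 0.15, adjusted p = 9.2e-06) stood beside -2.17 for Cyp4d14. Levels of asRNA:CR45943, opposite CG13255, were 12.8 to 26.4 TPM in control (median 18.5) and 5.11 to 9.54 TPM in TFAM RNAi (median 6.57). That difference was also without overlap (log2 fold change -1.34, SE 0.18, adjusted p = 0.00014), and CG13255 had -0.78 with an adjusted p of 0.061, which does not pass the threshold. The gene lncRNA:mimi, whose exons overlap the microRNA gene mir-9381 on the same strand, had 4.66 to 12.2 TPM in control (median 9.51) and 0.957 to 4.18 TPM in TFAM RNAi (median 2.16). It was lower in all 6 TFAM RNAi libraries (log2 fold change -1.67, SE 0.26, adjusted p = 0.000382), and its coding neighbour CG13603 had -0.09 with an adjusted p of 0.71.

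The other 11 called falls were smaller, from -0.32 for asRNA:CR43767 to -1.33 for asRNA:CR45818 and lncRNA:CR44430. The 3 most abundant among them, asRNA:CR44704, asRNA:CR44095 and lncRNA:CR44458, stood at 83.3 ± 19.2, 81.7 ± 18 and 82.6 ± 16.1 TPM in control and at 38.0 ± 4.9, 40.0 ± 4.67 and 46.2 ± 7.38 TPM in TFAM RNAi. The least firm of the falls was lncRNA:CR44417, from 7.02 ± 1.11 to 4.86 ± 0.709 TPM with an adjusted p of 0.022, which was no longer called without control 5, control 7 or TFAM RNAi 4 (highest adjusted p 0.06).

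The largest increase was that of lncRNA:CR44316, a gene of 262 bases that was close to undetected in control. Control libraries held 0 to 2.2 TPM (median 0.347), 2 of them listed at 0, and TFAM RNAi libraries held 105 to 160 TPM (median 140). All TFAM RNAi libraries were far above all controls, with a log2 fold change of 6.49 (SE 0.26, adjusted p = 4.41e-09). The control mean of 0.649 TPM rested on control 6 and was 0.339 TPM without it. Of its flanking genes, both on the other strand, CG30046 rose by 0.71 on the log2 scale, with means of 5.46 and 9.72 TPM (adjusted p = 0.00823), and mIF3, a mitochondrial translation initiation factor, had -0.22 with an adjusted p of 0.16.

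The gene lncRNA:CR44042 rose from 1.9 to 2.94 TPM in control (median 2.66) to 7.17 to 14.2 TPM in TFAM RNAi (median 12.7). The lowest TFAM RNAi library, replicate 3, was still above every control, and the rise was 1.83 on the log2 scale (SE 0.16, adjusted p = 3.94e-06). Both flanking genes rose as well, Yeti by 0.61 and l(2)41Ab by 1.23 on the log2 scale, with adjusted p-values of 0.03 and 0.038. Opposite CG32444, asRNA:CR45955 had 6.43 to 12.4 TPM in control (median 8.94) and 16.7 to 25.2 TPM in TFAM RNAi (median 22.01). The groups did not overlap, and the rise was 1.20 on the log2 scale (SE 0.16, adjusted p = 0.000135), next to 1.30 for CG32444.

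The gene lncRNA:CR43493 lies within the span of l(1)G0196 on the other strand and shares no exon with it. Its levels were 5.86 to 11.8 TPM in control (median 7.69) and 10.9 to 22.5 TPM in TFAM RNAi (median 19.6). The groups overlapped through TFAM RNAi 3 and control 8, and the rise was 1.11 on the log2 scale (SE 0.19, adjusted p = 0.000975), beside l(1)G0196 at 0.88 and an adjusted p of 0.025. Opposite uex, a magnesium transporter gene, asRNA:CR45139 had 2.36 to 4.52 TPM in control (median 2.83) and 4.37 to 11.1 TPM in TFAM RNAi (median 7.84). Control 8 and TFAM RNAi 3 again overlapped (log2 fold change 1.07, SE 0.19, adjusted p = 0.00122), and uex had 0.52 with an adjusted p of 0.49.

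The abundant asRNA:CR44431 lies opposite Mgstl, a microsomal glutathione transferase gene. Control libraries held 121 to 171 TPM (median 144) and TFAM RNAi libraries 215 to 314 TPM (median 268). No library overlapped, and the log2 fold change of 0.91 (SE 0.11, adjusted p = 5.3e-05) stood next to 0.91 for Mgstl. The pair lncRNA:CR42868 and lncRNA:CR45269, which overlap each other on opposite strands, rose by 0.75 and 0.73 on the log2 scale. Their means went from 12.4 ± 3.5 to 22.1 ± 7.82 TPM and from 5.84 ± 1.43 to 10.5 ± 2.72 TPM, and control 8 was the highest control library for both. The adjusted p of lncRNA:CR42868 was 0.034, but the gene was no longer called in 14 of 26 alternative analyses. In 8 of these 14, 1 library was left out (control 2, 3, 5, 6 or 7, or TFAM RNAi 3, 4 or 8). The highest adjusted p over the 26 was 0.14. For lncRNA:CR45269 the adjusted p was 0.00955.

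**Figure D2:**
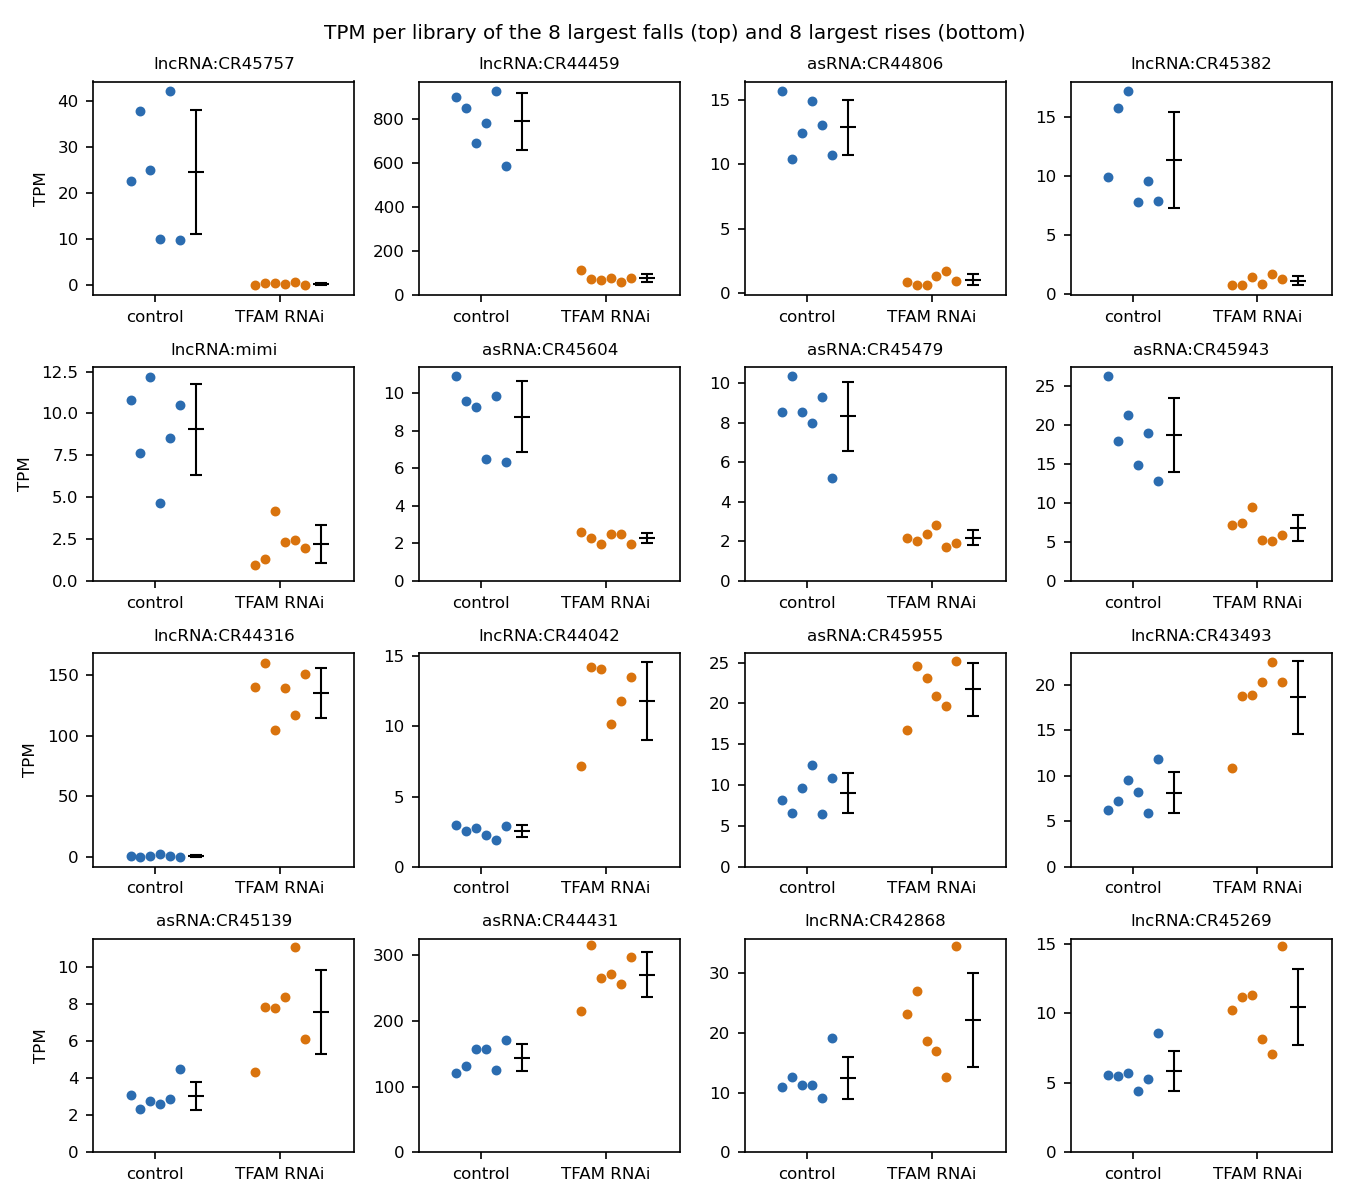
TPM per library (points), with mean and SD beside them, of the 8 largest called falls (upper 8 panels) and the 8 largest called rises (lower 8 panels), in 6 control and 6 TFAM RNAi libraries. The groups do not overlap in the falls, and in the rises 4 genes (lncRNA:CR43493, asRNA:CR45139, lncRNA:CR42868 and lncRNA:CR45269) overlap.

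The most abundant gene of all, lncRNA:CR34335, was not called. It stood at 2126 to 3428 TPM in control (median 2496) and at 1916 to 2902 TPM in TFAM RNAi (median 2028). The groups overlapped over most of their range (log2 fold change -0.25, SE 0.13, adjusted p = 0.21). The fourth in level, lncRNA:CR42491, shares exon positions with the ribosomal protein gene RpL22 on the same strand, so reads of the one cannot be told apart from reads of the other in a table of transcript estimates. It had 157 to 238 TPM in control (median 174) and 238 to 303 TPM in TFAM RNAi (median 271), and its groups met without overlap at 238.1 and 238.4 TPM. The rise was 0.54 on the log2 scale (SE 0.11, adjusted p = 0.00256), and RpL22 had 0.26 with an adjusted p of 0.27. The antisense gene asRNA:CR44054, the eighth in level, had means of 76.5 ± 14.4 and 89.8 ± 5.68 TPM that did not pass the test (0.25 on the log2 scale, adjusted p = 0.17). Of the coding genes opposite it, ssp7 had 0.24 with an adjusted p of 0.25, and CG15199 rose by 1.48 on the log2 scale, from 83.0 ± 27.5 to 224 ± 26.1 TPM.

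Where a gene with a coding gene opposite it was called, the coding gene was in most cases called too. Exons of 44 of the 95 genes lay opposite exons of a coding gene, and 41 had such a partner among the tested genes. Of these 41, 13 were called, and for 11 of the 13 the partner was called in the same direction, 9 times lower and 2 times higher. Among the 13, asRNA:CR44806, asRNA:CR45604 and asRNA:CR45479 reached the mean of 5 TPM in control only, and asRNA:CR45139 in TFAM RNAi only. Their part in the counts and in the correlation below thus depends on how the genes were chosen. None of these 13 partners was called in the opposite direction, and 2 were not called. These counts take 1 partner per gene, the most abundant, and leave out CG15199, CG2076 and CG2061, of which CG2061 rose while asRNA:CR45604 opposite it fell. For the 28 uncalled members 6 partners were called. In all, 17 of the 41 partners (41.5%) were called, against 19.6% of all tested genes and 24.5% of those that averaged at least 5 TPM. The fold changes of member and partner had the same sign in 33 of 41 pairs. Across the 41 pairs, which are genes and not replicates, the log2 fold changes had a correlation of 0.91.

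The level of the antisense gene was a median of 15.8% of that of its partner in control, from 0.345 to 147%. In several pairs this percentage was nearly constant over libraries. Whether the quantification used the strand is not given, so reads of a gene and of its partner cannot be told apart. This limit holds for these percentages and for the counts of pairs above, and its part in them was not tested. The largest example was asRNA:CR11538, opposite the larval serum protein gene Lsp2. Lsp2 varied from 1924 to 7227 TPM over the 12 libraries, and asRNA:CR11538, from 294 to 1187 TPM, was 15 to 17% of it in every library. Neither was called (log2 fold change 0.39, adjusted p = 0.5, and 0.33, adjusted p = 0.56). The percentage was 50.1 to 63.4% for asRNA:CR44431 and Mgstl, 12.0 to 15.4% for asRNA:CR44095 and Cys, a cystatin-like protease inhibitor gene, and 10.7 to 14.8% for asRNA:CR44704 and CG10527. Both genes were called in each of these 3 pairs, with log2 fold changes of -0.99 and -0.87 for asRNA:CR44095 and Cys and -1.09 and -0.94 for asRNA:CR44704 and CG10527.

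In other pairs the percentage did not overlap between the groups. The gene asRNA:CR43767 was 12.8 to 20.5% of Tango14 in control and 24.4 to 29.1% in TFAM RNAi, as Tango14 fell from 89.7 to 39.0 TPM and asRNA:CR43767 from 13.7 ± 0.532 to 10.8 ± 0.976 TPM. For asRNA:CR45604 and Vago it went from 1.72 to 2.8% in control to 3.12 to 4.39% in TFAM RNAi. In further pairs, whose percentages overlapped between the groups, the fold changes differed in size. HDAC1, a histone deacetylase gene, fell by 1.39 on the log2 scale and lncRNA:CR45438 opposite it by 0.75. The spermidine synthase gene SpdS rose by 0.95 (adjusted p = 0.000213), while asRNA:CR45053 opposite it stood at 13.5 ± 4.76 and 14.5 ± 4.61 TPM (log2 fold change 0.10, adjusted p = 0.81). The gene dUTPase fell by 0.73, and asRNA:CR45778 had -0.46 with an adjusted p of 0.12. The differences between member and partner were not tested.

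**Figure D3:**
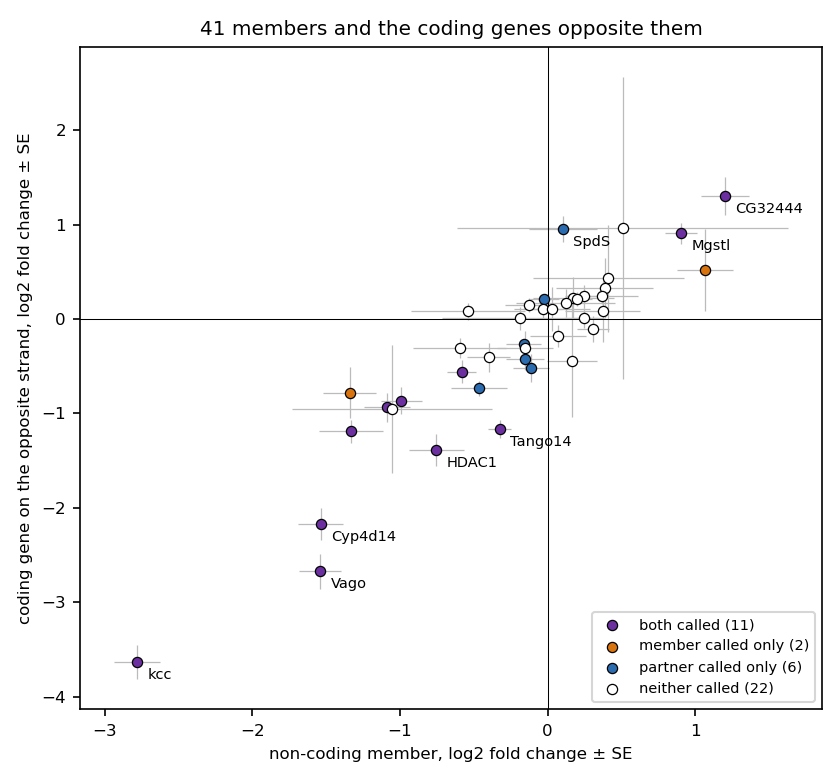
Log2 fold change (± SE) of the 41 non-coding RNA genes (members) that lie opposite a tested coding gene, against that of the coding gene. In 11 pairs both were called, all of them in the lower left or upper right part of the plot, and SpdS (0.95) lies beside an uncalled gene at 0.10.

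Among the controls, 25 of the 95 genes varied along with genes of the male germline. The 10 male germline markers, among them the meiotic arrest genes can, sa and aly and the testis tubulin gene betaTub85D, summed to 195, 48.1, 123, 50.8, 104 and 86.1 TPM in controls 2, 3, 5, 6, 7 and 8. In TFAM RNAi 3 to 8 the sums were 56.3, 64.8, 147, 129, 145 and 104 TPM. The 6 germline markers common to both sexes, vas and aub among them, summed to 45.0, 17.1, 46.5, 16.2, 37.8 and 27.8 TPM in the same controls and to 10.1, 18.4, 37.5, 33.9, 35.2 and 29.0 TPM in TFAM RNAi, also lowest in controls 3 and 6 and in TFAM RNAi 3 and 4. Over the 6 controls, the 25 genes followed the male germline sum with a Pearson correlation on the log2 scale of 0.91 to 1.0 (Spearman 0.89 to 1.0), and the next gene had 0.75. In the 6 TFAM RNAi libraries, which did not choose these 25 genes, the correlation was 0.77 to 1.0 (Spearman 0.66 to 1.0), and 21 of the 25 reached 0.9. Without the 2 libraries farthest from the median it was 0.86 to 1.0 in control and 0.36 to 1.0 in TFAM RNAi. These correlations are descriptions of libraries that share the differences named above, and 20.5% of all tested genes passed 0.9 in the controls, against 26.3% of the 95. Of the 2039 tested genes that reached 0.9 in the controls, 1556 also reached it in TFAM RNAi. Reaching it in both groups was thus not particular to the 25 genes.

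The 25 genes, 23 lncRNA genes and 2 antisense RNA genes, included lncRNA:CR32660, lncRNA:CR32658, lncRNA:CR32690 and lncRNA:CR43264. Together they made 1081, 212, 583, 216, 523 and 394 TPM in controls 2, 3, 5, 6, 7 and 8, and 322, 372, 754, 679, 696 and 525 TPM in TFAM RNAi 3 to 8. Controls 3 and 6 were the 2 lowest controls for all 25, and for 5 of the other 70 genes. Control 2 was the highest control for 24 of the 25. The 25 were chosen by following a sum that was lowest in controls 3 and 6 and highest in control 2. These counts in the controls thus largely follow from the choice. TFAM RNAi 3 and 4 were the 2 lowest TFAM RNAi libraries for 23 of the 25. As an example, lncRNA:CR32690 had 76.5, 8.84, 39.8, 11.7, 32.2 and 26.8 TPM in the controls and 19.9, 23.8, 53.1, 49.1, 52.3 and 37 TPM in TFAM RNAi. Several of these genes are neighbours in the annotation, namely lncRNA:CR32657 and lncRNA:CR32658, then lncRNA:CR32661, lncRNA:CR43157 and lncRNA:CR32660, and lncRNA:CR43278, lncRNA:CR43279 and lncRNA:CR43835.

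By limma 0 of these 25 genes were called, 0 had an unadjusted p under 0.05, and an exact rank-sum test called 0. The same held for the 10 markers. Among all 2039 tested genes with such a correlation in the controls, 1.32% were called, and among the other 7912 tested genes 24.3%. The choice of the 25 genes selects for spread among the controls, so nothing is read from their count of 0 or from the 40.0% called among the other 70. With the log2 level of the markers as a covariate, an alternative chosen after the data were seen, 6 of the 25 were called higher and 1 lower, and all 28 genes called without it stayed called in the same direction. Over all tested genes 32.5% were called with this covariate, against 19.6% without it, so more calls were not particular to these genes. The dosage compensation RNA lncRNA:roX1 also differed between libraries, at 50.2, 20.4, 54.4, 15.2, 25.2 and 39.98 TPM in the controls and 9.18 to 62.6 TPM in TFAM RNAi. What part male tissue or the sex of the larvae had in this was not tested.

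**Figure D4:**
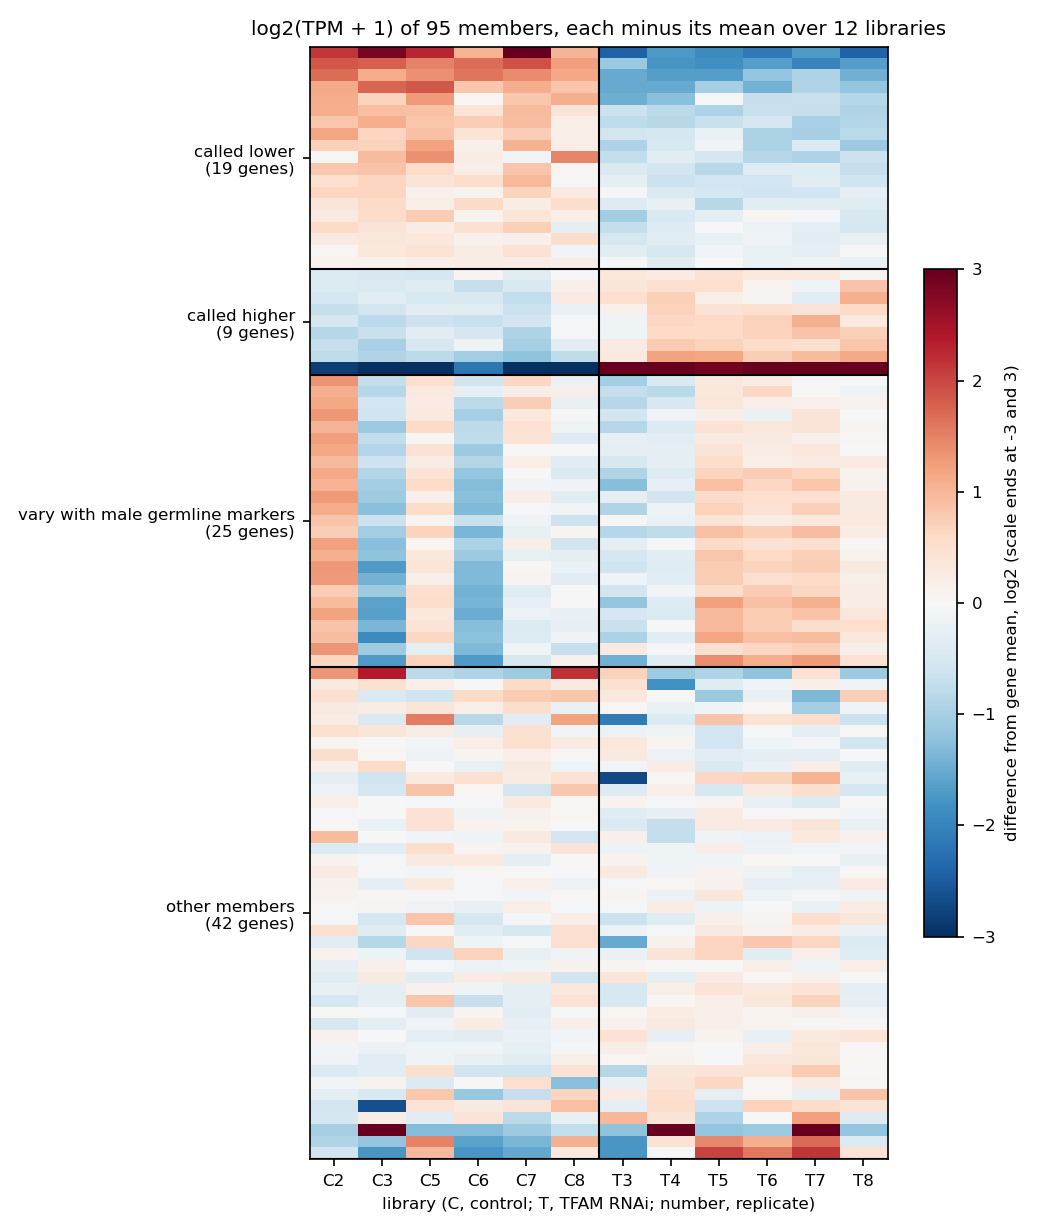
Heat map of the 95 genes (rows, sorted by fold change within 4 sets) over the 12 libraries (columns), in log2(TPM + 1) minus the mean of the gene. The 19 and 9 called genes divide at the line between control and TFAM RNAi, and the 25 genes that vary with male germline markers are low in C3, C6, T3 and T4 and high in C2, T5, T6 and T7.

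Other genes differed between libraries of a group with other patterns. The widest range was that of asRNA:CR45343, which lies opposite Peritrophin-15b, a gene of the lining of the gut. It had 36.4 TPM in control 3, 18.6 TPM in TFAM RNAi 4 and 22.6 TPM in TFAM RNAi 7, and 0 to 0.488 TPM in the other 9 libraries. Peritrophin-15b was at 266, 159 and 160 TPM in the same 3 libraries and at 0.461 to 3.7 TPM elsewhere, and the gut marker list summed to 472, 801 and 59.8 TPM in them and to 34.1 to 255 TPM in the other 9. The mean of asRNA:CR45343 in control was 6.22 TPM with control 3 and 0.178 TPM without it. A like pattern, noticed after the values were seen, was that of asRNA:CR45712. It had 71.5, 62.4 and 33.6 TPM in controls 3, 8 and 2 and 21.4 and 17.6 TPM in TFAM RNAi 3 and 7, and 5.03 to 7.08 TPM in the other 7 libraries. CG15353 opposite it ranged from 106 to 1256 TPM and ranked those 5 libraries in the same order, and asRNA:CR45712 was 4.4 to 6.1% of it throughout.

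The gene asRNA:CR43908, opposite CG15741, had 11.9 to 148 TPM in control (median 99.1) and 50.9 to 127 TPM in TFAM RNAi (median 108). Its lowest library was control 3, where CG15741 was lowest too, at 45.9 TPM against 249.5 to 725 TPM in the other libraries. The short asRNA:CR44910 was at 7.88e-06 TPM in TFAM RNAi 3 and at 3.28 to 12.1 TPM in the other 11 libraries, while Noc2 opposite it averaged 36.0 and 36.5 TPM in the 2 groups. None of these 4 genes was called, with adjusted p-values from 0.36 to 0.86.

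**Figure D5:**
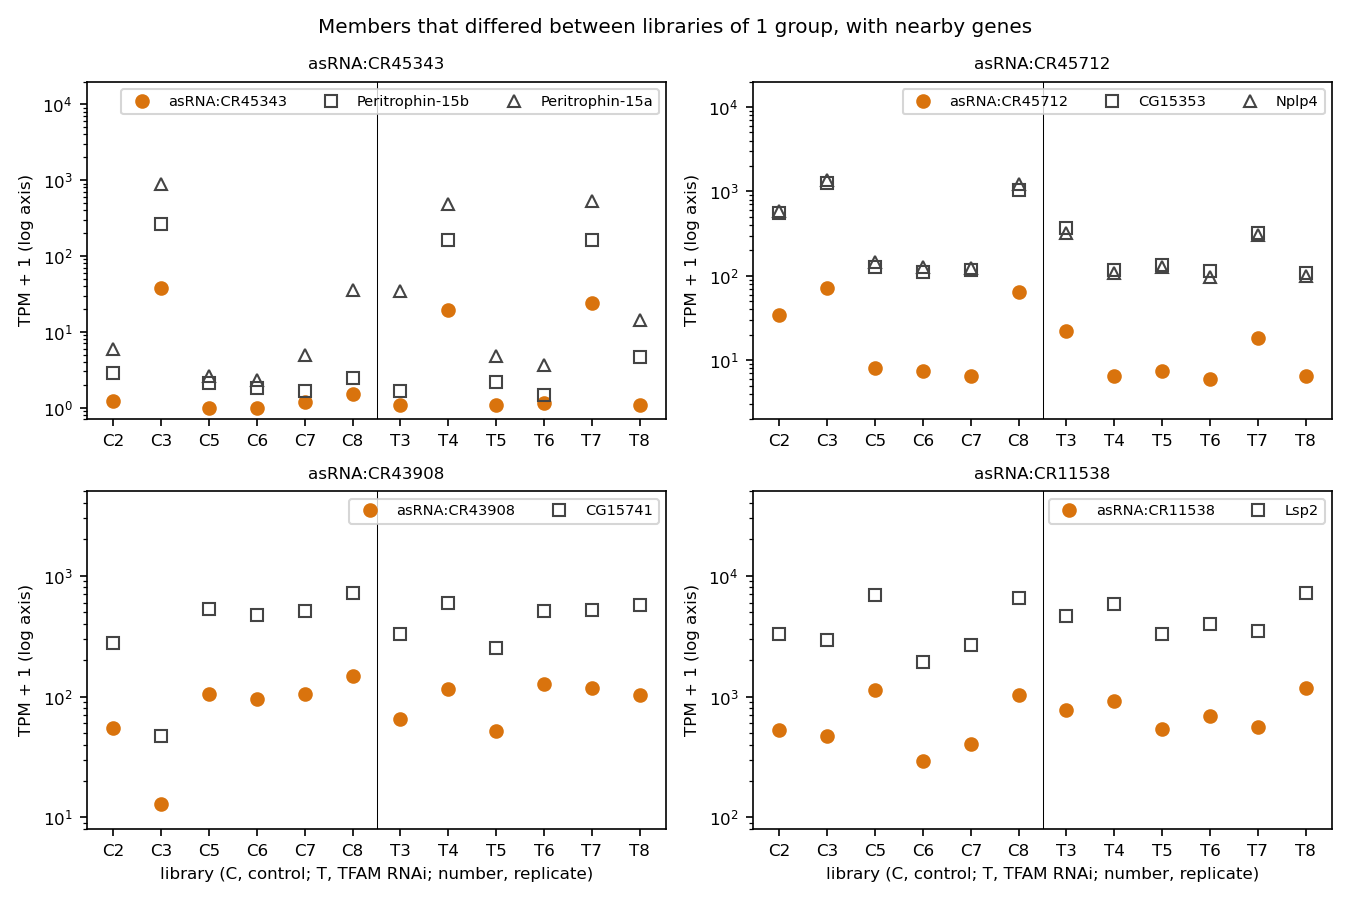
TPM + 1 (log axis) of 4 antisense genes (filled) and nearby genes (open) in each control (C) and TFAM RNAi (T) library. Peaks of asRNA:CR45343 at C3, T4 and T7 and of asRNA:CR45712 at C2, C3, C8, T3 and T7 coincide with those of the coding genes beside them, and asRNA:CR11538 runs parallel to Lsp2.

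A few genes were high in libraries rich in long transcripts. Coding genes with transcripts of at least 5000 bases, 856 in number, made 2.35 and 1.95% of the TPM in controls 5 and 8 and 2.34, 2.02 and 2.47% in TFAM RNAi 5, 6 and 7. They made 1.02 to 1.22% in the other 4 controls, 1.42 and 1.28% in TFAM RNAi 4 and 8, and 0.705% in TFAM RNAi 3. The gene asRNA:CR44370, with a transcript of 5482 bases, had 7.67 and 4.41 TPM in controls 5 and 8 and 0.314 to 1.95 TPM in the other controls. In TFAM RNAi it had 17, 12.2 and 18.4 TPM in replicates 5, 6 and 7, and 0.31 to 4.96 TPM in the others (log2 fold change 1.45, SE 0.70, adjusted p = 0.2). The gene lncRNA:CR42862, with a transcript of 5480 bases, reached 87.2 and 69.2 TPM in controls 5 and 8 against 16.2 to 34.5 TPM in the others. It was lowest, at 6.1 TPM, in TFAM RNAi 3. The pattern was not shared by asRNA:CR45604, whose transcript of 5913 bases is the longest. Its lowest control was control 8, at 6.3 TPM, and its lowest library TFAM RNAi 5, at 1.96 TPM. The pattern was also seen for lncRNA:CR45102, whose transcript has 1429 bases. It had 11.4 and 8.37 TPM in controls 5 and 8 against 0.47 to 1.37 TPM in the other controls, and 11, 8.45 and 13.5 TPM in TFAM RNAi 5, 6 and 7. What long transcripts have to do with these differences was not tested.

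Transcript by transcript, 116 of the 143 transcripts of the 95 genes averaged at least 1 TPM and were tested among 15248, and 29 were called, 10 of them higher. These include transcripts 1 and 2 of asRNA:CR45139, whose values were identical. The share called among all 15248 transcripts is not given here, so nothing is read from this count. Only 15 genes had at least 2 tested transcripts, and 0 genes had transcripts called in both directions. In the authors' deposited table of likelihood ratio tests, which lists 1561 genes, 21 of the 95 genes appear, and all 21 were called here. The smallest q-values among them in the authors' deposited table were 6.14e-07 for lncRNA:CR44459 and 9.66e-07 for lncRNA:CR44316. The 7 called genes outside that list were lncRNA:CR42491, lncRNA:CR42868, lncRNA:CR45269, lncRNA:CR44417, lncRNA:CR44725, lncRNA:CR45438 and asRNA:CR43767, with log2 fold changes from -0.75 to 0.75.

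Few better known non-coding RNA genes, and few genes that process or degrade such RNAs, were called. Of 12 tested genes from a list of better known non-coding RNAs, with the pair of 7SL genes of identical values counted once, 1 was called. This was Uhg4, a host gene of small nucleolar RNAs, which rose by 0.55 on the log2 scale, with means of 73.9 ± 12.6 and 108 ± 11 TPM (adjusted p = 0.0022). roX1, roX2 and Hsromega, a heat shock RNA, had log2 fold changes of 0.21, 0.17 and -0.22 with adjusted p-values from 0.63 to 0.8. Among 14 genes of the nuclear exosome and its cofactors 1 was called lower, the nuclease gene Dis3, at 24.03 ± 3.66 and 17.4 ± 2.23 TPM (log2 fold change -0.44, adjusted p = 0.02). Among 12 genes of nonsense-mediated decay 2 were called lower, the exon junction genes mago and tsu, by 0.20 and 0.28 on the log2 scale. Of 6 genes of the male-specific lethal complex, the histone acetyltransferase gene mof was called, with 8.80 ± 1.62 and 3.83 ± 1.00 TPM (log2 fold change -1.03, adjusted p = 0.000535). By limma 0 of 14 Integrator genes and 0 of 8 genes of cytoplasmic decay were called, with 2 and 0 at an unadjusted p under 0.05 and 0 by the rank-sum test. All of these lists were at or below the 19.6% of tested genes that were called.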

How the data were processed

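The authors deposited TPM per RefSeq transcript for 12 libraries, each summing to 1000000, and tables of test results with p-values and q-values, coefficients taken as natural log ratios (against natural log TPM their slope was 0.999 over 1498 transcripts) and a standard error score for each coefficient. The tool sleuth is named per the submitters' processing notes, with no version. The quantifier, its strand setting and the genome build are not given in the sources used here, so no coordinates are printed. Sequencing depth is unknown, since TPM does not hold it, and intervals for counting error cannot be given. Per-sample columns left unused numbered 0.

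Transcripts were named through the RefSeq gene table (Release 6 plus ISO1 MT), with a match for 34056 of 34213 transcripts (99.54%), and summed per gene. Strands, exons and neighbours came from the Ensembl annotation and from the order of genes in the RefSeq table. The 9951 genes averaging 1 TPM or more were tested with limma 3.58.1 in R 4.3.3 (lmFit, eBayes with trend, two-sided, Benjamini-Hochberg over all tested genes) on log2(TPM + 1), a scale that understates changes of low genes. In tests on simulated data, log2 changes of 0.5, 1, -1 and 2, in 50 genes each, were called in 11, 35, 31 and 48 genes, with 8 false calls among 9751 genes. The simulated noise was independent between genes, whereas many genes varied together in these libraries. The count of false calls therefore need not hold for the real data.

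The genes described, the lists beside them and the tests were chosen with earlier results of these data known. Genes were named by rule: the 8 largest called rises and falls, the 8 highest means, the 4 widest within-group ranges, the 3 genes on each side of the 5 TPM mean, and their neighbours. Promoter motifs were not searched. Whether the replicate numbers pair the libraries is not given, and the main test did not pair them.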

Additional observations from a re-analysis of the deposited data

Results flagged for a closer look

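In 6 of 50 groups of 6 libraries examined, 1 library lay far from the other 5 by Dixon's criterion, which chance meets in about 1 of 20 groups. Control 8 was the outlying high library for 3 genes that rose, lncRNA:CR42868 (19.1 TPM), lncRNA:CR45269 (8.59 TPM) and asRNA:CR45139 (4.52 TPM). The first 2 of these overlap each other on opposite strands. TFAM RNAi 3 was the outlying library for lncRNA:CR44459, where it was highest (114 TPM), and for lncRNA:CR43493, where it was lowest (10.9 TPM), in both cases on the side of the control group. The library with 36.4 TPM of asRNA:CR45343 was control 3, against at most 0.488 TPM in the other controls.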

How the results depend on the processing

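Across 26 alternative analyses (pseudocounts of 0.1 and 0.5, other filters on low values, median-ratio and quantile scaling, limma without trend, robust limma, a rank-sum test, leaving out libraries, a replicate block and a covariate), genes called higher numbered 7 to 10 and lower 17 to 20, except under the replicate block and the covariate. The transcript-level test is given with the results. Leaving out 1 library gave 8 to 10 higher and 18 to 20 lower. With the male germline marker level as a covariate 17 were called higher and 20 lower. The share called over all tested genes was then 32.5%, against 19.6% as reported. With the replicate block, over the 5 numbers both groups share, 20 were called higher and 16 lower, and without the block the same 10 libraries gave 10 and 19. Over all genes tested in these libraries 25.1% were called with the block (1317 higher, 1167 lower) and 19.9% without it (868 and 1102). Of the 11 genes called only with the block, 10 were among the 25 that followed male germline markers, all of them higher. Deviations of same-numbered libraries correlated at 0.31, 0.62, -0.08, 0.05 and 0.03 for numbers 3, 5, 6, 7 and 8. Only 1 control library correlated best with its own number. The labels do not say what the numbers stand for, so whether they pair the libraries cannot be told. Of the 28 called genes, 21 were called in all 26 analyses, lncRNA:CR42868 was lost in 14, lncRNA:CR44417 in 7, asRNA:CR43767 in 3, lncRNA:CR44725 in 2 and lncRNA:CR42491, lncRNA:CR45438 and lncRNA:CR45269 in 1 each. The other analyses moved the median of all genes by less than 0.1. Of 36 genes followed across these analyses, 4 uncalled genes reversed in sign, and the cause was not tested. Signs of the other members were not followed. Without 1 library lncRNA:CR43264 ranged from -0.093 to 0.31, asRNA:CR43908 from -0.073 to 0.63, asRNA:CR45343 from -0.090 to 1.34 and asRNA:CR44910 from -0.41 to 0.34 on the log2 scale. Without the 4 libraries richest in other-tissue markers (controls 2 and 7, TFAM RNAi 3 and 7) asRNA:CR45343 had -0.27 and asRNA:CR44910 0.14. Without the 3 libraries lowest in male germline markers (controls 3 and 6, TFAM RNAi 3) lncRNA:CR43264 had -0.25 and asRNA:CR44910 0.25. With the covariate lncRNA:CR43264 had -0.071, and with the replicate block, and in the same 10 libraries without it, asRNA:CR45343 had -0.19. The last 4 settings named (both sets of libraries, the covariate and the shared-number libraries) were added after seeing the data. Depth is unknown, so how firmly genes near 5 TPM were measured cannot be given.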
